A study of Homo sapiens with 10 samples.

Results

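The regions described here are places where BRD9 was detected by CUT&RUN after SMARCB1 was switched on, was not detected in control cells, and where SMARCB1 itself was not detected. In CUT&RUN an antibody directs a nuclease to cut out the DNA around its target protein, and the released fragments are sequenced. Peaks of the 6 BRD9 lists on chromosomes 1 to 22 and X were merged into 116495 regions when they shared at least 1 bp. A region was kept when it held a peak in at least 2 of the 3 lists of SMARCB1-induced cells, held none in the 3 lists of GFP-induced cells, and overlapped no peak of either SMARCB1 list. This left 718 regions, which are called the gained regions away from SMARCB1. They made up 1.08% of the 66395 BRD9 regions that overlapped no SMARCB1 peak, whereas 28.2% of the 50100 regions that did overlap one were gained. Over all merged regions the gained share was 12.7%.

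SWI/SNF complexes are remodellers that use ATP to move or evict nucleosomes, and they come in several forms. SMARCB1 is a core subunit of the canonical BAF and PBAF forms. BRD9, a bromodomain protein, marks the non-canonical form, which assembles without SMARCB1. Rhabdoid tumours are driven by loss of SMARCB1 and depend on BRD9 for growth.

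All samples were of G401, a human rhabdoid tumour cell line labelled SMARCB1(-/-), in which doxycycline induced either GFP or SMARCB1. The groups used were BRD9 after GFP induction (3 samples), BRD9 after SMARCB1 induction (3 samples) and SMARCB1 after SMARCB1 induction (2 samples), so every result rests on 1 cell line. The labels do not say whether replicates were separate cultures, and p-values then measure only the spread between these samples, which may be technical. The SMARCB1 sample of GFP-induced cells and the IgG sample were not analysed here. The SMARCB1 lists are titled with GFP as control, so a SMARCB1 peak may mean enrichment over GFP-induced cells. BRD9 libraries held 10.1 to 13.9 M reads, and the SMARCB1 libraries 59.7 and 64.2 M reads. Lists of SMARCB1-induced cells had 38127 to 44399 BRD9 peaks on these chromosomes, and those of GFP-induced cells 33112 to 43698.

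Of the 14832 gained regions, 4.84% lay away from SMARCB1 (95% Wilson interval 4.51 to 5.20%, which covers counting error only). A further 82 overlapped a peak of SMARCB1 replicate 1 alone and 324 one of replicate 2 alone, while 13708 overlapped both. Which regions counted as away depended on the SMARCB1 list used. Of the 1042 gained regions off the peaks of replicate 1, 31.1% were at a peak of replicate 2, and of the 800 off replicate 2, 10.2% were at a peak of replicate 1. With replicate 2 as the sole reference there were 800 regions, and with replicate 1 alone 1042.

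Few of the 718 regions were called throughout. In 79 regions (11.0%) all 3 SMARCB1-induced lists had a call, while replicates 1 and 3 alone shared 261, replicates 1 and 2 alone 241, and replicates 2 and 3 alone 137. At gained regions that overlapped SMARCB1, 7970 of 14114 were called in 3 of 3 lists. Among regions off SMARCB1 with calls in at least 2 SMARCB1-induced lists and in 1 GFP-induced list, 76 of 542 were. Since a region enters when any pair of lists holds it, the count was lower without 1 list and with both remaining lists required: 217 without replicate 1, 343 without replicate 2 and 318 without replicate 3. The opposite class, called in at least 2 of 3 lists of GFP-induced cells and 0 of 3 of SMARCB1-induced cells and away from SMARCB1, held 4828 regions, 7.27% of those off SMARCB1 peaks, where the lost share over all merged regions was 5.69% and that at SMARCB1 peaks 3.6%. It held 1452, 3404 and 1695 without GFP replicate 1, 2 and 3, against 1040, 818 and 878 gained regions without the same lists. Leaving out a GFP list makes the lost rule stricter, as both remaining GFP lists must hold a peak. The same step loosens the gained rule, so these paired counts are at unlike thresholds. These counts follow from the rule and are given as a description.

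How well such regions repeat was measured in lists that played no part in choosing them. Regions were chosen on the lists of 2 replicate numbers, both with a peak in SMARCB1-induced cells and neither with one in GFP-induced cells, and were looked up in the 2 lists of the number held out. With replicate 1 held out there were 328 regions away from SMARCB1, of which 39.3% had a peak in the SMARCB1-induced list and 33.8% in the GFP-induced list. With replicate 2 held out there were 396, with 27.0% and 13.4%. With replicate 3 held out there were 388, with 27.6% and 18.0%. The share was higher in the SMARCB1-induced list each time, by 5.49, 13.6 and 9.54 points, but by far less than at SMARCB1 peaks.

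Means over the 3 held-out numbers were 31.3 ± 6.95% in SMARCB1-induced and 21.8 ± 10.7% in GFP-induced lists (SD, n = 3 each), a difference of 9.55 ± 4.07 points. Its p is the smallest that 3 pairs allow (exact sign-flip permutation test, two-sided, p = 0.25, with 0.45 after adjustment over 6 tests). The difference was 10.3 points with equal numbers of top peaks (the 33112 best by score of each BRD9 list). It was 14.4 points with SMARCB1 replicate 2 as the sole reference and 20.01 points with replicate 1. With SMARCB1 regions of both replicates it was 22.4 points. Among peaks at or above the median score of their list (the better-scoring peaks) it was 26.3 points. That cut was made in the SMARCB1 lists too. All of these settings but the first leave fewer SMARCB1 peaks as reference, so other regions count as away. Gained regions at SMARCB1, chosen and looked up in the same way, had a peak in 79.9 ± 2.43% of cases in the held-out SMARCB1-induced list and 5.65 ± 3.89% in the GFP-induced list (SD, n = 3 each). In the held-out SMARCB1-induced lists the regions away from SMARCB1 had the lower share in 3 of 3 cases, with a mean difference of -48.6 ± 6.27 points (exact sign-flip permutation test, two-sided, p = 0.25, with 0.45 after adjustment). Regions lost away from SMARCB1 were called in 17.7 ± 9.71% of held-out SMARCB1-induced and 47.9 ± 22.1% of held-out GFP-induced lists (SD, n = 3 each). The 3 held-out sets share regions, and the lists of GFP-induced cells hold more peaks off SMARCB1.

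**Figure D1:**
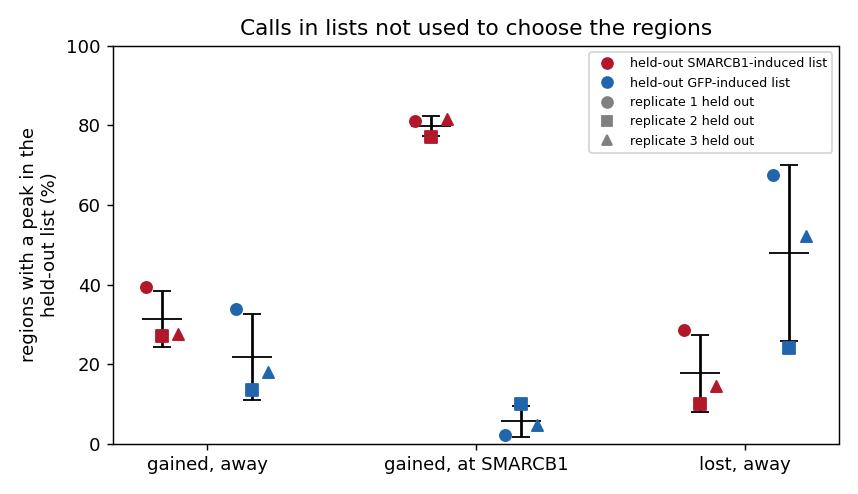
Share of regions (%, y axis) with a peak in a list not used to choose them, for 3 classes of region (x axis); points are the 3 held-out replicate numbers, red for SMARCB1-induced and blue for GFP-induced lists, and bars are the mean ± SD. Gained regions away from SMARCB1 averaged 31.3% and 21.8%, with overlapping points, while those at SMARCB1 averaged 79.9% and 5.65%.

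Regions near SMARCB1 and far from it were also looked up separately. Among chosen regions within 10 kb of a SMARCB1 peak, 38.6%, 35.8% and 37.5% were called in the held-out SMARCB1-induced list with replicates 1, 2 and 3 held out, against 18.4%, 11.7% and 15.6% in the GFP-induced list. Beyond 10 kb the shares were 39.7%, 22.4% and 22.7% in SMARCB1-induced lists and 42.1%, 14.3% and 19.2% in GFP-induced lists. Near SMARCB1 all 3 values of SMARCB1-induced lists lay above all 3 of GFP-induced lists, and beyond 10 kb the values overlapped. The difference between near and far regions was not tested.

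The distance from a gained region to the nearest SMARCB1 peak ran from 8 bp to 3178974 bp, with a median of 63169 bp. Within 1 kb lay 71 regions (9.89%), between 1 and 10 kb 173 (24.1%), and 136 (18.9%) lay between 10 and 100 kb. A further 260 (36.2%) lay between 100 kb and 1 Mb and 78 (10.9%) beyond 1 Mb. The median moved with the lists used. It was 112112 bp without GFP replicate 1, 17405 bp without SMARCB1-induced replicate 1, 41750 bp without SMARCB1-induced replicate 2, 36888 bp without SMARCB1 replicate 1 and 17600 bp without SMARCB1 replicate 2. The 79 regions called in 3 of 3 lists had a median distance of 10750 bp, and 48.1% of them lay within 10 kb, against 32.2% of the 639 called in 2 lists.

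Other BRD9 regions off SMARCB1 peaks had other distances. Lost regions had a median of 26025 bp, below that of gained regions, with 38.5% within 10 kb and 61.4% within 100 kb, against 34.0% and 52.9% of gained regions. Regions called in all 6 lists had a median of 84380 bp but only 14.6% within 10 kb. Regions in 1 SMARCB1-induced list and no other, which stand just outside the rule, had a median of 269906 bp and 21.8% within 10 kb. Regions in at least 2 SMARCB1-induced lists and 1 GFP-induced list, also just outside it, had 128950 bp and 22.9%. For the other edge of the rule, 8 gained regions lay 50 bp or less from a SMARCB1 peak, with median densities of 2.96 RPKM (reads per M library reads and kilobase of the peak) for BRD9 and 0.574 RPKM for the control. Just outside it, 3 gained regions shared 50 bp or less with one, with 3.04 and 0.990 RPKM.

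**Figure D2:**
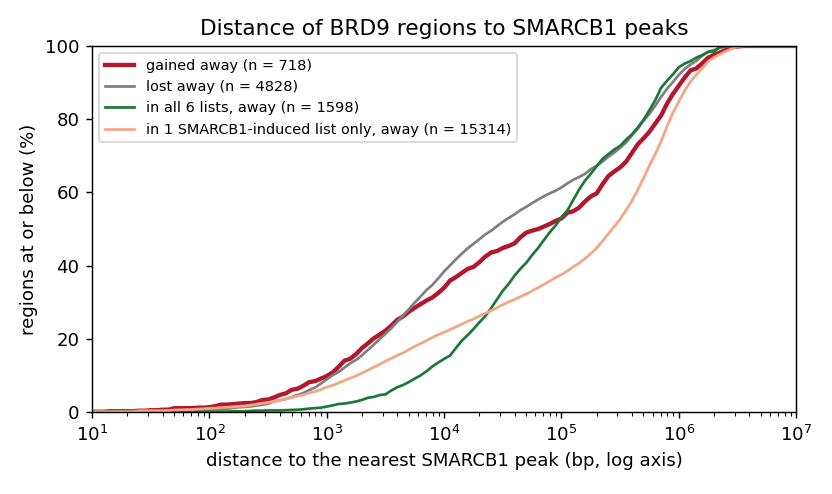
Cumulative share of regions (%, y axis) by distance to the nearest SMARCB1 peak (bp, log axis), for gained regions, lost regions, regions in all 6 BRD9 lists and regions in 1 SMARCB1-induced list, all off SMARCB1 peaks. The gained curve reaches 34.0% at 10 kb and 52.9% at 100 kb, where the lost curve reaches 38.5% and 61.4%.

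The SMARCB1 sites next to gained regions had widths and densities near those of all SMARCB1 sites. For the 244 regions within 10 kb, the nearest merged SMARCB1 region had a median width of 700 bp and a median density of 1.41 RPKM, against 625 bp and 1.39 RPKM over all 179078 merged SMARCB1 regions. It held a peak of both replicates in 54.1% of cases, against 48.9% overall. Around regions beyond 10 kb the nearest SMARCB1 region was called in both replicates in 35.0% of cases.

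SMARCB1 regions were also counted in the surrounding 1 Mb, 500 kb to each side, so the count is tied to the distance itself. Medians were 114 merged SMARCB1 regions within 1 kb of a SMARCB1 peak, 102 between 1 and 10 kb, and 43 between 10 and 100 kb. Between 100 kb and 1 Mb the median was 1, and beyond 1 Mb the count is 0 by definition. In all, 181 of the 718 regions (25.2%) had no SMARCB1 region in that window. Among other regions off SMARCB1 the share was 20.5% for lost regions, 20.3% for those in all 6 lists and 36.2% for those in 1 SMARCB1-induced list. BRD9 peaks of GFP-induced cells ran the other way, with medians of 30 per window within 1 kb and 111 beyond 1 Mb. They were counted over the 3 lists without merging, so 1 site can count more than once. Their median was 63 for all gained regions and 61 for regions in 1 SMARCB1-induced list. It was 156 for lost regions and 302 for those in all 6 lists, which hold such peaks by their rule. Gained regions at SMARCB1 had medians of 131 SMARCB1 regions and 29 BRD9 peaks of GFP-induced cells.

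Although no gained region overlapped a BRD9 peak of GFP-induced cells, by the rule, many lay beside one. The nearest such peak was within 1 kb for 182 regions (25.3%) and at a median of 5138 bp. Regions in 1 SMARCB1-induced list, also off SMARCB1, were alike in this, with 21.4% within 1 kb and a median of 5810 bp. At gained regions on SMARCB1 peaks the share was 6.15% and the median 25848 bp. Merging peaks up to 500 bp apart, which joins many of these neighbours, gave 745 regions at a median of 103300 bp from SMARCB1.

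Single peaks within the 718 regions were small. In SMARCB1-induced replicate 1, 581 regions were called with a median of 18 reads per peak, in replicate 2, 457 regions with 13 reads, and in replicate 3, 477 regions with 16 reads. Medians were lower than at gained regions on SMARCB1 peaks in each list, where they were 30, 24 and 29 reads. An exact Poisson interval for 13 reads is 6.92 to 22.2, and the smallest peaks held 9 or 10 reads. A list gives reads at its own peaks alone, so a region without a call may hold reads that were just too few, and the lists of GFP-induced cells give no read count at these regions.

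Densities were low as well. Median density was 2.86, 3.12 and 2.83 RPKM in replicates 1, 2 and 3, against 3.47, 3.61 and 3.18 RPKM at gained regions on SMARCB1 peaks. Over lists these are 2.94 ± 0.158 and 3.42 ± 0.224 RPKM (SD, n = 3 each), lower away from SMARCB1 in 3 of 3 lists. By the score in the deposited lists (−log10 of a false discovery rate), the peaks stood at the 37.1, 26.7 and 33.7 percentile of their lists, and those on SMARCB1 peaks at 65.0, 62.5 and 64.0. Peaks in 1 SMARCB1-induced list alone stood at 16.2, 14.2 and 13.1. As these are values the calls were made from, no test was applied.

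A merged region spans all its peaks, so more calls can only widen it, and width follows the number of calls by construction. The median width of a merged region was 636 bp (25th to 75th percentile 504 to 834 bp, range 281 to 2134 bp), with 616 bp for 2 calls and 882 bp for 3 calls. Gained regions on SMARCB1 peaks had a median of 878 bp, lost regions away from SMARCB1 800 bp, and regions in all 6 lists away from SMARCB1 3004 bp. Single peaks, which merging does not widen, had median widths of 500, 395 and 375 bp in SMARCB1-induced replicates 1, 2 and 3. At gained regions on SMARCB1 peaks these were 700, 646 and 656 bp. Where several lists called a region, their highest points lay a median of 158 bp apart, against 154 bp at gained regions on SMARCB1 peaks.

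The control library had few reads in these regions. The BRD9 lists do not name it, but its size was equal in the 6 lists, and 82 of 82 pairs of identical intervals in different lists had equal control reads, so it was treated as 1 library of unknown identity. A gained region had a median control density of 0.288 RPKM (25th to 75th percentile 0.111 to 0.509), and 118 regions (16.4%) held 0 control reads. Gained regions on SMARCB1 peaks had 0.929 RPKM, and 41 of 14114 held 0 control reads. Over the intervals of the 3 lists the control medians were 0.254, 0.288 and 0.298 RPKM away from SMARCB1, and 0.897, 0.945 and 0.923 RPKM at SMARCB1, with no overlap. Lost regions away from SMARCB1 were near the former, at 0.243 RPKM. With 1 control library behind them, the lists are not independent replicates of this measure.

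**Figure D3:**
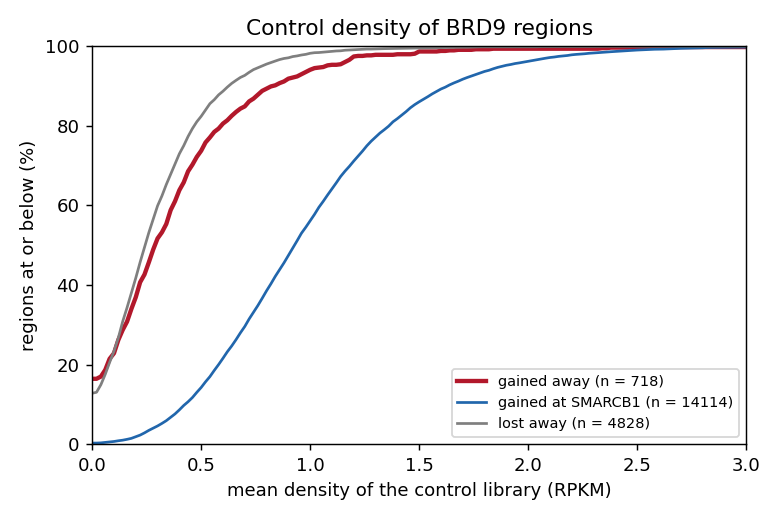
Cumulative share of regions (%, y axis) by mean density of the control library (RPKM, x axis) for gained regions away from SMARCB1, gained regions at SMARCB1 and lost regions away from SMARCB1. The away curves start at 16.4% and 12.8% with 0 control reads and the other at 0.290%; medians are 0.288, 0.243 and 0.929 RPKM.

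Control density was lower in the 2 farthest bins of distance than in the 3 nearer ones. Its median was 0.469 RPKM within 1 kb, 0.417 between 1 and 10 kb, 0.439 between 10 and 100 kb, 0.187 between 100 kb and 1 Mb, and 0.0976 beyond 1 Mb. Regions with 0 control reads made up 2.82% of the first bin and 39.7% of the last. Median BRD9 density was between 2.91 and 2.96 RPKM in every bin. Calls in 3 of 3 lists made up 16.9%, 15.0%, 16.2%, 6.15% and 3.85% of the bins from near to far.

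All BRD9 peaks off SMARCB1 peaks, gained or not, were also counted in each list. They come from the lists that the rule used and include the peaks of gained and lost regions, so they are given as a description, with no test. GFP-induced lists had 32907, 16937 and 24056 such peaks and SMARCB1-induced lists 16469, 10925 and 11453, in the order of replicates 1 to 3. All SMARCB1-induced lists lay below all GFP-induced lists. On average there were 24633 ± 8001 after GFP and 12949 ± 3060 after SMARCB1 induction (SD, n = 3 each). The log2 ratio was -0.93. In both groups replicate 1 had the most.

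The distance of those peaks to SMARCB1 overlapped between the groups. List medians were 158418, 47903 and 60588 bp in GFP-induced and 202722, 141202 and 88307 bp in SMARCB1-induced cells, a log2 difference of 0.82. The median control density at these peaks was 0.254 ± 0.0333 RPKM in GFP-induced and 0.274 ± 0.0420 RPKM in SMARCB1-induced lists (SD, n = 3 each; log2 difference 0.11). Median widths were 453 ± 38.7 and 436 ± 56.9 bp (SD, n = 3 each), a log2 difference of -0.058. The direction for width flipped to 0.18 among the better-scoring peaks of each list, to 0.058 with equal numbers of top peaks, and to 0.016 without SMARCB1-induced replicate 3.

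**Figure D4:**
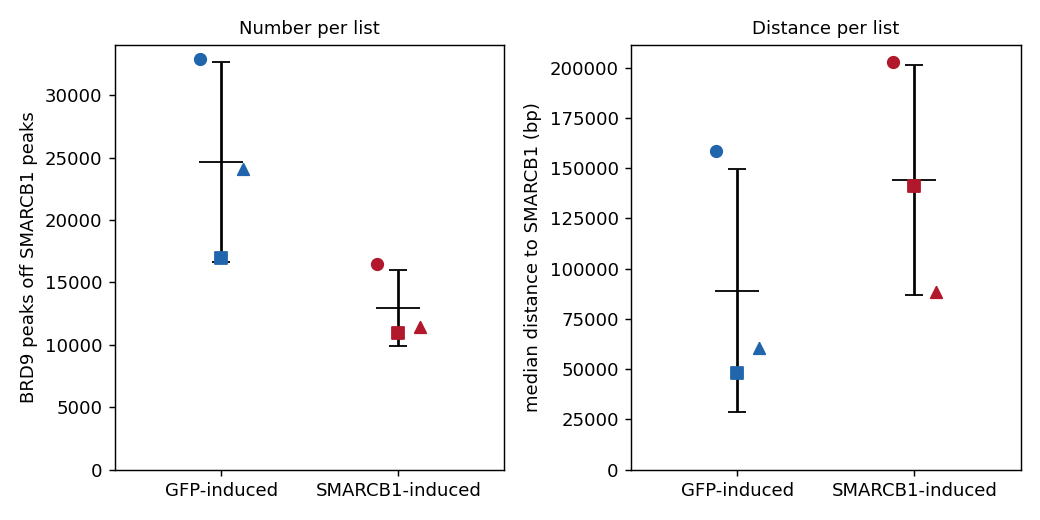
All BRD9 peaks off SMARCB1 peaks in each of the 6 lists, with their number (left y axis) and median distance in bp to the nearest SMARCB1 peak (right y axis); points are lists (circle, square and triangle for replicates 1, 2 and 3) and bars the mean ± SD. Numbers do not overlap, with 24633 on average after GFP and 12949 after SMARCB1 induction, while distances overlap.

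Among regions called in 3 of 3 lists, the 10 highest by mean rank of the authors' score lay on 8 chromosomes, 3 of them on chromosome 19. Coordinates are those of the deposited lists, on build hg19. The first was chr13:29328976-29330276, which lay 300 bp from a SMARCB1 peak and had 38, 27 and 49 reads in replicates 1, 2 and 3 (3.13, 4.05 and 3.44 RPKM) against 10, 9 and 9 control reads over the same intervals. All 3 lists were above the control there, at 3.54 ± 0.467 RPKM (SD, n = 3) against 0.468 RPKM.

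Next came chr19:44966801-44967683, 13725 bp from SMARCB1, with 35, 40 and 39 reads (3.50, 5.40 and 3.27 RPKM) and 2, 2 and 3 control reads. Its mean of 4.06 ± 1.17 RPKM (SD, n = 3) was the highest of the 10, but a BRD9 peak of GFP-induced cells lay 1193 bp away. The region chr5:105878351-105880001, 6900 bp from SMARCB1 and 2146 bp from a BRD9 peak of GFP-induced cells, had 71, 48 and 52 reads (4.23, 4.05 and 2.77 RPKM) against 11, 10 and 10 control reads. It was also among the 5 widest, at 1650 bp.

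The region chr12:106047801-106049151 (12900 bp from SMARCB1) had 3.48 ± 0.468 RPKM, and chr19:20748149-20748860 (357041 bp) had 3.94 ± 0.722 RPKM (SD, n = 3 each). The latter was the one region of the 10 over 100 kb from SMARCB1. At chr11:24131551-24132282 (1844 bp from SMARCB1) there were 26, 17 and 29 reads and 0 control reads in each list's interval, where a count of 0 allows up to 3 reads (the limit for a count of 0, one-sided, unlike the interval given for 13 reads). Its nearest BRD9 peak of GFP-induced cells was 84700 bp away.

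The region chr8:32249576-32250421 stood out for its control, with 29, 24 and 35 reads against 22, 26 and 28 control reads (3.78 ± 0.889 against a mean of 1.68 RPKM; SD, n = 3). It lay 14705 bp from SMARCB1 and 353125 bp from a BRD9 peak of GFP-induced cells. The farthest of the 10 from such a peak was chr2:221333701-221334452, at 531474 bp, with 33, 19 and 21 reads in replicates 1, 2 and 3 and 0 BRD9 peaks of GFP-induced cells in the surrounding 1 Mb. The remaining regions were chr16:3255750-3256789 (2224 bp from SMARCB1, 3.42 ± 0.676 RPKM) and chr19:28141476-28142176 (14825 bp, 3.60 ± 0.512 RPKM; SD, n = 3 each). The latter had 508 BRD9 peaks of GFP-induced cells in its 1 Mb window, the most of the 10.

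The 5 regions farthest from SMARCB1 were on chromosomes 13 and 16, and each was called in 2 lists. The farthest was chr13:56562950-56563526, 3178974 bp from a SMARCB1 peak, with 20 and 10 reads in replicates 1 and 2 against 3 and 2 control reads. Its neighbour chr13:56414401-56415709 (3030425 bp) had 27 and 14 reads in the same lists, and chr13:57168214-57168578 (2723548 bp) had 13 and 12 reads with 0 control reads. On chromosome 16, chr16:62325151-62325962 (2836614 bp) was called in replicates 1 and 3 with 23 and 11 reads, and chr16:61585914-61586576 (2795163 bp) in replicates 1 and 2 with 14 and 10 reads. At such distances none could have a SMARCB1 region within its 1 Mb window. Each had between 28 and 42 BRD9 peaks of GFP-induced cells in that window.

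The widest region was chr13:66036801-66038935 (2134 bp), only 75 bp from a SMARCB1 peak, with 45, 12 and 57 reads in replicates 1, 2 and 3. After it came chr7:9989651-9991376 (1725 bp, 187606 bp from SMARCB1), with 65, 40 and 22 reads. The others were chr12:1530026-1531726 (1700 bp, called in replicates 1 and 3) and chr2:82637526-82639176 (1650 bp, 725850 bp from SMARCB1, called in replicates 1 and 3), beside the region on chromosome 5 given above.

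Some regions were called where the control was dense. The densest was chr4:190802301-190802721, with 28 and 33 reads in replicates 2 and 3 (6.58 and 6.76 RPKM) against 77 and 76 control reads (7.93 and 9.36 RPKM). Control density exceeded BRD9 density in 2 of the 718 regions, this one and chr8:142502301-142502609 (11 and 11 reads in replicates 1 and 3 against 22 and 21 control reads). The next were chr11:642601-642967, chr7:2417176-2417579 and chr18:76960606-76960887, with control means of 2.47, 2.36 and 2.33 RPKM against 3.14, 2.88 and 3.62 RPKM for BRD9. All 5 were under 500 bp wide and called in 2 lists. In all, 43 regions (5.99%) had a control density above 1 RPKM, against 43.9% of gained regions on SMARCB1 peaks.

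Nearest to SMARCB1 were chr5:90580384-90581168 at 8 bp, chr15:63535326-63536037 at 14 bp and chr6:138210051-138211501 at 25 bp. They had 3.51 ± 0.886, 2.66 ± 0.253 and 2.65 ± 0.451 RPKM (SD over 2, 2 and 3 lists). The second also lay 214 bp from a BRD9 peak of GFP-induced cells.

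By chromosome, the gained regions were most numerous on chromosome 8, with 124 (17.3%). The same chromosome held 6.33% of gained regions on SMARCB1 peaks, 10.7% of lost regions away from SMARCB1 and 11.8% of regions in 1 SMARCB1-induced list. It also held 12.1, 11.6 and 11.7% of all peaks off SMARCB1 in SMARCB1-induced lists and 10.3, 9.95 and 10.6% in GFP-induced lists. Of the BRD9 regions on chromosome 8 that overlapped no SMARCB1 peak, 1.75% were gained, the highest value of the 23 chromosomes, against the 1.08% given above for all. Chromosomes 13 and X followed with 1.73% and 1.67%, the latter from 12 regions, and chromosomes 22 and 10 had 0.269% and 0.430%.

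On chromosome 8 the regions were not spread evenly. Intervals of 5 Mb starting at 0, 85 and 135 Mb held 19, 21 and 21 of the 124, and the one at 50 Mb held 13. The same 4 intervals held the most regions of 1 SMARCB1-induced list (207, 195, 272 and 199), and they held 37, 74, 62 and 92 lost regions. Control and BRD9 densities on chromosome 8 were as elsewhere, with medians of 0.284 and 2.93 RPKM against 0.288 and 2.93 RPKM for the other 594 regions. The median distance to SMARCB1 was longer, 211338 bp against 39223 bp, and 7.26% were called in 3 of 3 lists against 11.8%.

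Chromosome 19 differed in another way. It held 30 gained regions (4.18%) but 13.5% of lost regions and 14.6% of the regions called in all 6 lists, both away from SMARCB1. Of its 30, 30.0% were called in 3 of 3 lists, as were 33.3% of the 12 on chromosome X. Of the BRD9 regions on chromosome 19 that overlapped no SMARCB1 peak, 0.659% were gained, below the 1.08% for all chromosomes. The share of gained regions that lay away from SMARCB1 was 14.2% on chromosome 19 and 12.2% on chromosome 8, against 4.84% over all chromosomes and 1.23% on chromosome 10. Chromosome 19 held only 1.29% of the gained regions on SMARCB1 peaks, which raises its share.

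**Figure D5:**
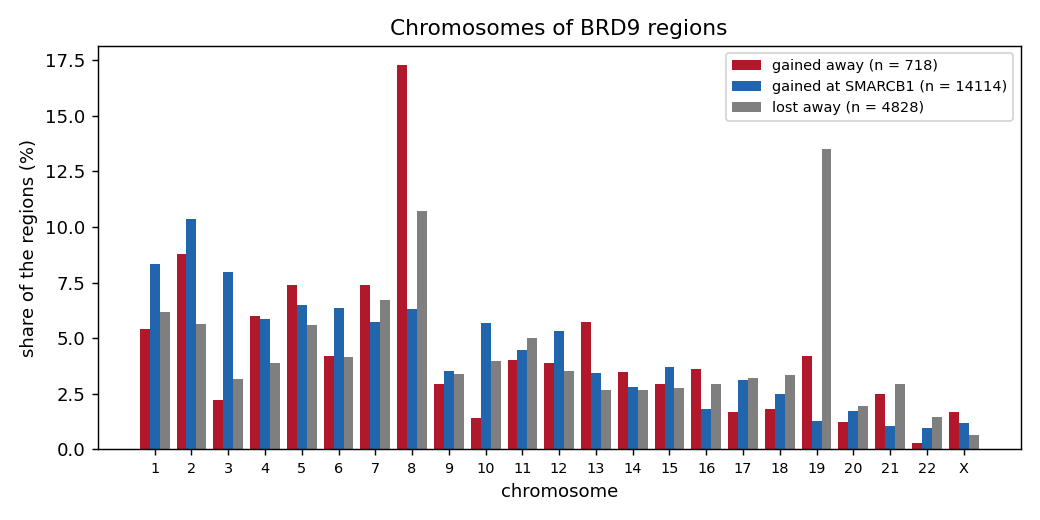
Share of regions (%, y axis) on each chromosome (x axis) for gained regions away from SMARCB1, gained regions at SMARCB1 and lost regions away from SMARCB1; bars of a colour sum to all regions of that class. Chromosome 8 holds 17.3% of the first, 6.33% of the second and 10.7% of the third, and chromosome 19 holds 4.18%, 1.29% and 13.5%.

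Gained regions mostly stood alone. With a gap of at most 100 kb, 489 (68.1%) had no other gained region beside them and 229 formed 86 chains. The longest chains held 9 regions each, on chr8:4569450-4958376 (389 kb) and on chr7:9956125-10273351 (317 kb). The first lay at a median of 1084017 bp from SMARCB1 and had a median control density of 0.0767 RPKM, with 0 of its 9 regions called in 3 of 3 lists. The second lay at 302743 bp with a control of 0.347 RPKM and 1 region in 3 of 3 lists. A chain of 8 followed on chr8:137298723-137598427. These chains were picked after their values were seen and carry no test.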

How the data were processed

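CUT&RUN of SMARCB1 and BRD9 in G401 cells was analysed from 8 peak lists, 1 per sample. Per the file headers, each deposited list holds read counts of the sample and its control in every peak. The deposited normalized values equal RPKM, and the authors' score is a −log10 false discovery rate, 3.98 to 4.00 at its lowest. The submitters' processing notes name BWA 0.7.12-r1039, SAMtools, bedtools, DiffBind and edgeR, with no role. The peak caller is not given in the sources used here. The SMARCB1 lists are titled as hg19 with GFP as control. The BRD9 lists are titled with neither, and the build of all lists, hg19, is from the submitters' processing notes. Library sizes are reads per kilobase divided by RPKM. The BRD9 control had 23.1 M reads.

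Regions, distances and shares were computed with Python 3.11.15, numpy 2.4.6, pandas 2.3.3 and scipy 1.17.1; figures used matplotlib 3.10.9. Overlap meant at least 1 bp. Exact permutation tests were adjusted by Benjamini-Hochberg over 6 tests, of which the 4 on all peaks off SMARCB1 use lists that the rule used, and their values are given without p. The members, lists and rules were chosen with earlier results of these data known. Regions named are the 10 highest by mean rank of score among those in 3 of 3 lists, the 5 farthest, 5 widest and 5 of highest control density, and the 3 nearest; chains were named after their values were seen. Code was tested on simulated data, where 200 of 200 planted gained regions away from SMARCB1 were found. Planted peaks of a region overlapped by design and had no neighbour within 1 kb. The test thus checks the code and not its behaviour where peaks lie close together. Annotation and sequence of hg19 were not used here, so genes are not named and gene lists were not applied. Alternatives were score, number of calls, overlap, merging, SMARCB1 reference, equal list lengths, all sequences, a replicate block and leaving out each list; leaving out chromosome 8 and dense controls was added after seeing the data.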

Additional observations from a re-analysis of the deposited data

Results flagged for a closer look

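A signal appeared on sequences that the count of 718 regions leaves out. On the sequence JH636052.4, 97 of 169 BRD9 regions met the same rule of a peak in at least 2 of 3 SMARCB1-induced and 0 of 3 GFP-induced lists, and 0 met the opposite rule. A further 22 of 32 did so on JH159146.1, with 0 the other way. These are 57.4% and 68.8% of the regions there. On chromosomes 1 to 22 and X the gained share was 12.7% of all merged regions and 1.08% of those off SMARCB1 peaks. Neither share is a like comparison. The 12.7% includes regions on SMARCB1 peaks, of which 28.2% were gained. The 1.08% is of regions selected for being off SMARCB1 peaks, which selects nothing on these sequences. Both SMARCB1 lists hold 0 peaks on either sequence, so that a BRD9 region there could not overlap one. This is not particular to them: off chromosomes 1 to 22 and X, all 170 and 210 peaks of SMARCB1 replicates 1 and 2 are on chromosome Y. Why the SMARCB1 lists hold none on the other sequences was not tested. Over everything outside those chromosomes, 274 of 3344 regions off SMARCB1 peaks (8.19%) were gained and 202 (6.04%) lost. That gained count includes the 97 and 22 regions above. On chromosome Y the numbers were 16 gained and 18 lost of 500 such regions.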

How the results depend on the processing

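Of 196 recomputed values, 133 held, 60 moved and 3 turned their sign. Held meant the same direction for differences, a value inside the Wilson interval for shares, and a shift below the SD over lists for medians. For counts it meant a fixed fold limit, under which 1042 against 718 still held. The 718 gained regions away from SMARCB1 became 79 with a peak in 3 of 3 lists, 16032 with at least 1 of 3, 271 among the better-scoring peaks of each list, 376 with equal numbers of top peaks (33112 per list), and 1092 with SMARCB1 regions of both replicates as reference. The cut to better-scoring peaks was made in the SMARCB1 lists too, so fewer SMARCB1 peaks served as reference there. Leaving out 1 list gave 217 (SMARCB1-induced replicate 1) to 1042 (SMARCB1 replicate 2).

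Their share of all gained regions, 4.84%, was 0.981%, 35.5%, 2.92%, 2.99% and 7.36% in the same order. It was 6.55% over all sequences (some hold no SMARCB1 peak), 5.40% with peaks within 500 bp merged, 4.36% with no SMARCB1 peak within 1 kb, 4.30% without chromosome 8, and 2.12 to 7.03% without 1 list. The median distance, 63169 bp, was 10750, 259762, 14350, 25938 and 21088 bp in that order. It was 31582 bp with a 50% overlap, 103300 bp with merging, 128550 bp with the 1 kb limit, 39223 bp without chromosome 8, 203425 bp where the control was at most 0.5 RPKM, and 17405 to 112112 bp without 1 list. The 4828 lost regions became 743 in 3 of 3 lists, 41046 in at least 1 of 3, and 1452 to 6198 without 1 list. The log2 difference in median width of peaks off SMARCB1, -0.058, reversed to 0.18 among the better-scoring peaks, to 0.058 with equal numbers of top peaks and to 0.016 without SMARCB1-induced replicate 3, and was -0.16 at its lowest without 1 list. The log2 difference in their number stayed between -1.45 and -0.66, and the held-out difference between 9.55 and 26.3 points. Where fewer calls or shorter lists are asked for, the counts move by construction. The 1 kb limit likewise lowers the count and share and raises the median distance. Using 1 SMARCB1 list or regions of both replicates as reference can only raise the count and share. With the 50% overlap, regions that share less with a SMARCB1 peak count as away and directly beside it, which enters the median distance. For other shifts the cause was not tested.

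Replicate numbers are shared between groups. Over regions off SMARCB1, deviations of calls in same-numbered lists had correlations of -0.018, -0.0036 and -0.0032. Of these 66395 regions, 36218 had a call in 1 GFP-induced list alone and 15314 in 1 SMARCB1-induced list alone. In such regions the other group does not vary, so low correlations cannot decide whether the numbers mark pairs. In both groups replicate 1 had the most peaks off SMARCB1. With the replicate block, which asks for a gain in at least 2 of 3 same-numbered pairs and a loss in 0, the count was 794 gained regions (4.86% of all gained, median distance 53637 bp) and 5546 lost. At a median of 13 to 18 reads per peak, absence of a call is not shown to be absence of BRD9.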
